A study of Mus musculus with 15 samples.

Results

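Output and accessory loop genes of the circadian clock were measured in the choroid plexus of mice with and without alpha-adducin, the membrane skeleton protein encoded by Add1. The genes were Dbp, Tef, Hlf, Nfil3, Ciart (listed on the platform as Gm129), Nr1d1, Nr1d2, Bhlhe40, Bhlhe41 and Rora. These 10 genes of 19938 named genes on the array were found by symbol or synonym, and each was represented by a probe set chosen by its mean level over all 15 arrays. That mean was the only measured value the rule used, and it decided between probe sets only for Ciart, whose 2 probe sets averaged 6.41 and 6.20 on the log2 scale. The group of genes was proposed with earlier results of the same arrays known, including the difference of Ciart between genotypes, so the values of Ciart are a description of a known difference.

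RNA came from the choroid plexus, the tissue of the brain ventricles whose epithelium secretes cerebrospinal fluid. The groups were mice null for Add1, mice heterozygous for Add1 and wild-type mice, with 5 animals and 5 single-colour Affymetrix arrays in each. All 15 animals were C57BL/6J, labelled male and 3 weeks old, an age chosen by the study to precede hydrocephalus. The Add1 allele, the clock time of dissection and the light schedule were not known here. Since whole tissue was taken, fewer cells of a type and less RNA per cell cannot be told apart.

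In the circadian clock, CLOCK and BMAL1 (the product of Arntl) bind E-box sequences and switch on the Per and Cry genes, whose products then inhibit CLOCK and BMAL1. Accessory loops hang on this core. REV-ERB proteins (Nr1d1 and Nr1d2) repress Arntl and ROR proteins (Rora) activate it through a shared element, the RORE. DBP, TEF and HLF activate output genes through D-boxes, and NFIL3 represses through the same D-boxes. BHLHE40 and BHLHE41 (DEC1 and DEC2) compete for E-boxes, and CIART (CHRONO) represses CLOCK and BMAL1 directly. The choroid plexus is known to run a strong circadian clock of its own.

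The promoters of the 3 genes that differed between null and wild-type arrays, and of Bhlhe41, are shown because CLOCK and BMAL1 are known to act on several of these genes through E-boxes. Each line gives the 250 bases before an annotated start, 5′ to 3′ on the gene's strand, from RefSeq sequence of build GRCm38.p6, with matches to the E-box CACGTG in capitals. They lie at chr3:95882229-95882478 (minus strand) for Ciart, chr7:45704997-45705246 (plus) for Dbp, chr13:52981040-52981289 (minus) for Nfil3 and chr6:145865421-145865670 (minus) for Bhlhe41.
Ciart: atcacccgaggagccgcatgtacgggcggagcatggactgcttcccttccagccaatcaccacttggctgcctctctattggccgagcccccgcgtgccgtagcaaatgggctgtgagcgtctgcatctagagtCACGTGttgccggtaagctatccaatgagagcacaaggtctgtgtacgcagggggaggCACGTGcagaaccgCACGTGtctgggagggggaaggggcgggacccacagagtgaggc
Dbp: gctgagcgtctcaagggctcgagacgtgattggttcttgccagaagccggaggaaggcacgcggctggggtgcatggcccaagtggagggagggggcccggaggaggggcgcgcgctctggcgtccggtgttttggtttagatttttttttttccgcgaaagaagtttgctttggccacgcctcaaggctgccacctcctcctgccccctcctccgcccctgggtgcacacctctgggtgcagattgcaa
Nfil3: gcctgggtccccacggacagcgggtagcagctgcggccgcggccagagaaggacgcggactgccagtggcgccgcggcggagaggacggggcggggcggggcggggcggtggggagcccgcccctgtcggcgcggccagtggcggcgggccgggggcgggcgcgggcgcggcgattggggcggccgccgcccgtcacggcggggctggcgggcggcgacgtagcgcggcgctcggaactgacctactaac
Bhlhe41: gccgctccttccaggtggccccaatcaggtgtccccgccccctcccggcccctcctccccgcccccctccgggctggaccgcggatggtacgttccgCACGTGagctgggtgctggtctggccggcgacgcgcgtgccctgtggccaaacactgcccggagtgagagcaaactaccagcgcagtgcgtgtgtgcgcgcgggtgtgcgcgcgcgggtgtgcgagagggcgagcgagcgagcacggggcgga
The Ciart window held 3 E-boxes, 116, 58 and 44 bases before the start. The Bhlhe41 window held 1, at 153 bases. The Dbp and Nfil3 windows held 0 matches to CACGTG. The Nfil3 window lay inside the RefSeq span of its gene (chr13:52967209-52982878), and the Dbp window lay partly inside its own (chr7:45705100-45710203). For these genes the bases before the outermost start were therefore not searched in full.

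Windows were matched for 9 of the 10 genes, all but Bhlhe40, and numbered 10 because Tef had windows for 2 annotated starts. The start used was not always the outermost start of the gene. The windows of Nfil3 and Rora and the second of Tef lay inside the RefSeq span of the gene. Those of Dbp and Ciart lay partly inside it. Both Tef windows held 1 E-box, at 127 bases before the first start and 138 bases before the second, so 3 of the 9 genes had an E-box. Among 32851 mouse windows of the same length, 6.02% held CACGTG. The E′-box CACGTT was found in the Nr1d1 window, 28 bases before the start, and in 3.85% of all windows. The CRE, TGACGTCA, was found in the Hlf window, 9 bases before the start, and in 1.55% of all windows. The D-box (TTATGTAA or TTACGTAA) and the RORE (AANTN followed directly by GGTCA) matched 0 of the 10 windows, against 0.931% and 0.493% of all windows. Both strands were searched, no match overlapped another, and a window of this length leaves out enhancers and intronic elements.

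**Figure D1:**
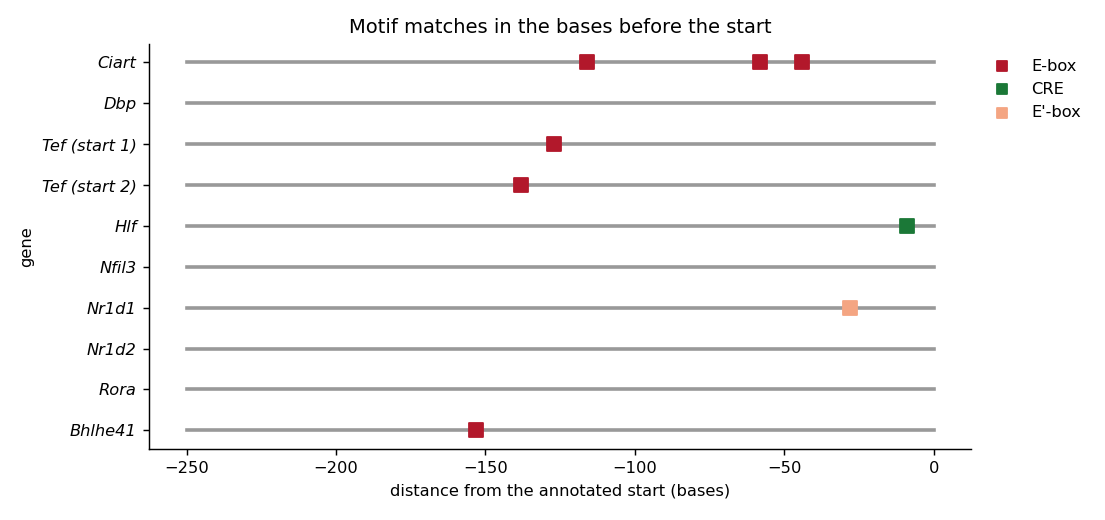
Each line is 1 window, the 250 bases before an annotated start (x axis, distance from the start in bases), and squares mark matches to the motifs searched, coloured by motif. The 3 E-boxes of Ciart lie within 116 bases of the start, and the windows of Dbp, Nfil3, Nr1d2 and Rora are empty.

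The arrays carried the following general features. Add1 lay between 7.41 and 7.76 in null arrays, 7.68 and 7.92 in heterozygous arrays and 7.78 and 8.04 in wild-type arrays. Which part of the gene was deleted was not known here. Null arrays 1 and 5 gave Xist signal (9.09 and 9.69), against their male label. Kdm5d, a gene of the Y chromosome, read 4.27 and 4.10 in these arrays and 6.97 to 7.23 in all others. By these 2 genes both arrays read as female, and no heterozygous or wild-type array did. Of the 10 epithelial markers 9 were measured and all 9 exceeded the filter in every array, with a summed log2 level of 101.62 to 102.22 in null, 101.25 to 102.39 in heterozygous and 101.53 to 102.38 in wild-type arrays. Of these 9, 1 was called higher and 2 were called lower in null arrays, against wild-type and against heterozygous arrays alike. Stromal markers summed to 41.11 to 43.16 in null, 39.37 to 41.79 in heterozygous and 39.22 to 41.20 in wild-type arrays, with 2 of 5 called higher in null than in wild type. Endothelial markers summed to 27.64 to 30.04, 26.83 to 27.39 and 26.31 to 27.76 in the same order of genotypes, with both tested markers called higher. Astrocyte and radial glia markers summed to 38.69 to 43.87 in null, 38.47 to 44.37 in heterozygous and 37.95 to 39.50 in wild-type arrays, with 1 of 5 tested called higher in null than in wild type. Heterozygous array 1 held the highest cerebellar neuron markers, up to a sum of 52.41, where null arrays reached 40.72 and wild-type arrays 40.71. The part of these markers in the results on the 10 genes was not tested.

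Values are RMA levels on the log2 scale, and a gene was tested where it exceeded 5.31 in at least 5 arrays, which 10109 genes did, all 10 of these among them. A difference was called at a Benjamini-Hochberg adjusted p under 0.05 over all genes tested, from 1 linear model per gene in limma. In null against wild-type arrays, Ciart and Dbp fell and Nfil3 rose, and the other 7 genes did not pass the test. In null against heterozygous arrays, Dbp fell and Nfil3 rose. Between heterozygous and wild-type arrays, 0 of the 10 genes differed. These 3 comparisons share arrays, so their values are not independent of each other.

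Read against all genes, 3 of the 10 genes were called between null and wild-type arrays, 1 higher and 2 lower, where 7.72% of the 10109 genes tested were called, 4.17% higher and 3.54% lower. In 0 of the 10 genes did the null arrays all lie above or all lie below the wild-type arrays, a pattern seen in 5.95% of genes. Between null and heterozygous arrays, 2 of 10 were called, 1 higher and 1 lower, where 7.82% of all genes were called, 4.28% higher and 3.54% lower. Only Nfil3 among the 10 had non-overlapping arrays there, against 5.76% of all genes. The median null minus wild-type difference was -0.10 over the 10 genes and 0.01 over all genes tested, and the median size without sign was 0.176 and 0.090. The difference of Ciart was known when the genes were proposed, so its part in these figures was fixed by that choice. Without Ciart, 2 of 9 genes were called, 1 higher and 1 lower, with a median of -0.03 and a median size of 0.168.

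Between heterozygous and wild-type arrays limma called 0 of 10 members and 0% of all genes, while 0 members and 381 genes had an unadjusted p under 0.05. The heterozygous arrays lay clear of the wild-type arrays in 0 of the 10 genes and in 0.801% of all genes. Apart from Ciart at -0.39 (95% interval -0.81 to 0.022) and Nr1d2 at -0.10 (-0.218 to 0.018), the heterozygous minus wild-type differences lay between -0.06 and 0.07.

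**Figure D2:**
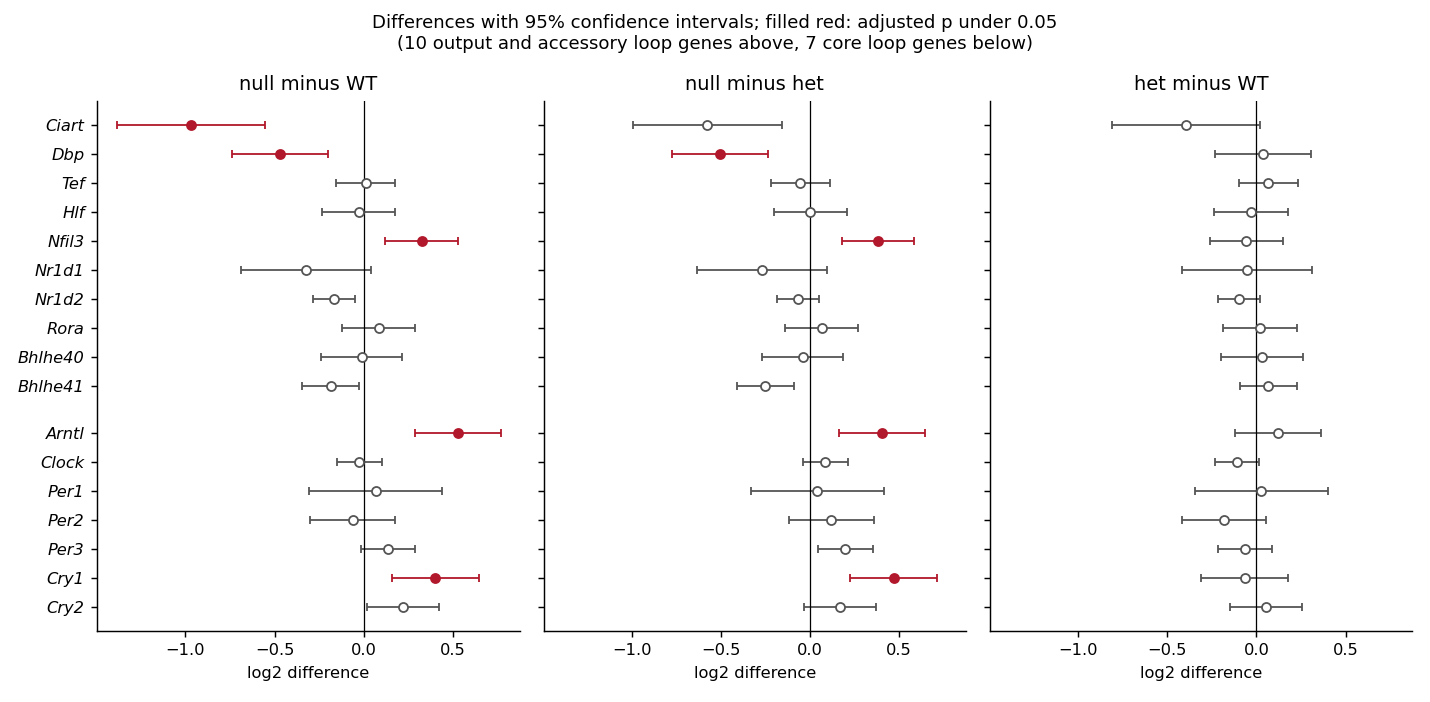
Log2 differences (x axis) of null minus wild type, null minus heterozygous and heterozygous minus wild type, with 95% confidence intervals, for the 10 genes and for 7 core loop genes beneath them (y axis). Filled red points mark adjusted p under 0.05, which Ciart, Dbp, Nfil3, Arntl and Cry1 reached in null minus wild type.

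Dbp encodes the D-box activator of the PAR bZIP family and is a strongly rhythmic transcript in many mouse tissues. Its level was 8.21, 8.53, 7.95, 8.24 and 8.69 in null arrays 1 to 5. It was 8.63, 8.80, 9.03, 8.97 and 8.72 in the heterozygous arrays and 9.0, 8.90, 8.67, 8.92 and 8.48 in the wild-type arrays. Null arrays 1, 3 and 4 lay below every other array, while null arrays 2 and 5 reached into the range of the wild-type arrays. The means were 8.32 ± 0.290 in null, 8.83 ± 0.168 in heterozygous and 8.79 ± 0.214 in wild-type arrays (SD, n = 5 each). Dbp fell by 0.47 on the log2 scale against wild type, to 72.2% of its linear level (SE 0.127, limma adjusted p = 0.0320). It fell by 0.51 against heterozygous arrays, to 70.4% (SE 0.127, limma adjusted p = 0.0248). The exact two-sided permutation p of Dbp was 0.0397 against wild type and 0.0159 against heterozygous arrays.

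Nfil3 encodes the repressor that competes with DBP for D-boxes. It read 6.86, 6.46, 6.93, 6.61 and 6.40 in null arrays 1 to 5. It read 6.10, 6.26, 6.26, 6.39 and 6.35 in the heterozygous arrays and 6.51, 6.25, 6.27, 6.22 and 6.39 in the wild-type arrays. Every null array lay above every heterozygous array, and 3 null arrays lay above the highest wild-type array. The means were 6.65 ± 0.236 in null, 6.27 ± 0.112 in heterozygous and 6.33 ± 0.120 in wild-type arrays (SD, n = 5 each). Nfil3 rose by 0.38 on the log2 scale against heterozygous arrays, to 130% (SE 0.0964, limma adjusted p = 0.0257). Against wild type it rose by 0.32, to 125% (SE 0.0964, limma adjusted p = 0.0484). Its exact permutation p was 0.00794 against heterozygous arrays, the smallest that 5 against 5 arrays can give, and 0.0318 against wild type.

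TEF and HLF are the other D-box activators of the family, and neither gene passed the test in any comparison. Tef averaged 7.43 ± 0.096 in null, 7.48 ± 0.151 in heterozygous and 7.41 ± 0.130 in wild-type arrays (SD, n = 5 each), and the null minus wild-type difference of 0.01 had a 95% interval of -0.154 to 0.178. Hlf averaged 6.24 ± 0.136 in null, 6.24 ± 0.107 in heterozygous and 6.27 ± 0.235 in wild-type arrays, with a null minus wild-type difference of -0.03 and an interval of -0.234 to 0.178. Both intervals leave out the difference of -0.47 measured for Dbp. Whether Dbp differed from Tef and Hlf in its response was not itself tested.

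**Figure D3:**
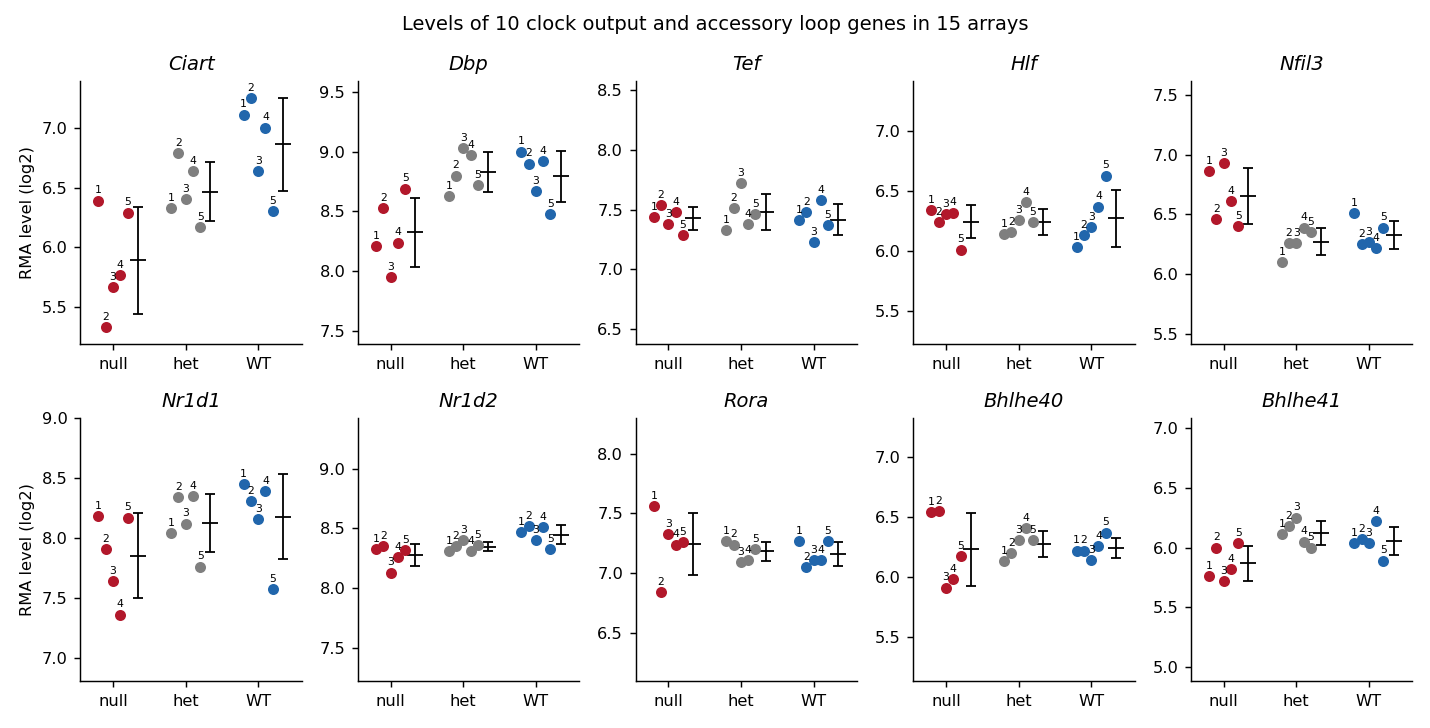
Each panel is 1 gene, with the RMA level on a log2 scale (y axis) in null, heterozygous and wild-type arrays (x axis), points for single arrays and bars for the mean and SD of 5 arrays. Ciart and Dbp sit lower and Nfil3 higher in null arrays than in wild-type arrays, and Tef and Hlf overlap throughout.

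Ciart encodes the repressor CHRONO, which acts on BMAL1 in the negative limb of the loop. Its level was 6.39, 5.33, 5.67, 5.77 and 6.29 in null arrays 1 to 5. It was 6.33, 6.79, 6.40, 6.64 and 6.17 in the heterozygous arrays and 7.11, 7.25, 6.64, 7.0 and 6.30 in the wild-type arrays. The means stood in the order null (5.89 ± 0.443), heterozygous (6.47 ± 0.248) and wild type (6.86 ± 0.386; SD, n = 5 each). Against wild type, 4 of the 5 null arrays lay below the lowest wild-type array. Ciart fell by 0.97 on the log2 scale in null against wild-type arrays, to 51.1% of the wild-type level (SE 0.198, limma adjusted p = 0.0072, exact permutation p = 0.0159). Neither step between neighbouring genotypes passed the test, at -0.58 for null minus heterozygous (limma adjusted p = 0.0765) and -0.39 for heterozygous minus wild type (limma adjusted p = 0.994).

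The call of Ciart rested on 1 of its 2 probe sets. The second probe set read 6.32, 5.92, 5.93, 5.64 and 6.14 in null arrays 1 to 5. It read 6.00, 6.37, 6.78, 6.08 and 5.90 in the heterozygous arrays and 6.26, 6.44, 6.26, 6.97 and 6.01 in the wild-type arrays. The genotypes overlapped, with means of 5.99 ± 0.256 in null, 6.23 ± 0.356 in heterozygous and 6.39 ± 0.360 in wild-type arrays (SD, n = 5 each). Its null minus wild-type difference was -0.40 (SE 0.177, limma adjusted p = 0.176). The direction was that of the first probe set, and the threshold was not passed. Over the 15 deviations from the genotype means, both probe sets moved together at r = 0.512 and rho = 0.586. The platform annotation gives both probe sets the same transcripts. In the order of probe set identifiers, 10 of 10 named neighbours of the second probe set lie on chromosome 3, where RefSeq places Ciart, while 8 of 8 named neighbours of the first lie on chromosome 10.

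The REV-ERB genes repress Arntl and are read from E-boxes and D-boxes. Nr1d1 read 8.18, 7.91, 7.64, 7.36 and 8.17 in null arrays 1 to 5, against 8.45, 8.31, 8.16, 8.39 and 7.57 in the wild-type arrays. Wild-type array 5 lay below 4 of the 5 null arrays, and the means of 7.85 ± 0.353 in null, 8.12 ± 0.244 in heterozygous and 8.18 ± 0.356 in wild-type arrays (SD, n = 5 each) differed by less than the test could separate. The null minus wild-type difference was -0.32 with a 95% interval of -0.69 to 0.042 (limma adjusted p = 0.269). Nr1d2 spread far less, with 8.33, 8.35, 8.13, 8.26 and 8.32 in null arrays 1 to 5, against 8.47, 8.52, 8.40, 8.51 and 8.33 in the wild-type arrays. Its means were 8.28 ± 0.089 in null, 8.35 ± 0.038 in heterozygous and 8.45 ± 0.080 in wild-type arrays. Its null minus wild-type difference of -0.17 missed the threshold after adjustment over all genes (limma adjusted p = 0.0760), with an exact permutation p of 0.0238 for the gene alone. Rora, the activator at the same element, averaged 7.25 ± 0.260 in null, 7.18 ± 0.079 in heterozygous and 7.16 ± 0.102 in wild-type arrays, and its difference of 0.08 did not pass (limma adjusted p = 0.648).

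Of the DEC repressors, Bhlhe41 read 5.76, 6.00, 5.72, 5.82 and 6.04 in null arrays 1 to 5, against 6.11, 6.18, 6.25, 6.05 and 6.00 in the heterozygous arrays. The wild-type arrays read 6.04, 6.07, 6.04, 6.22 and 5.89. The 3 lowest null arrays lay below every other array. The differences of -0.25 for null minus heterozygous (limma adjusted p = 0.0518, exact permutation p = 0.0238) and -0.18 for null minus wild type (limma adjusted p = 0.147) missed the threshold. Bhlhe40 averaged 6.23 ± 0.303 in null, 6.27 ± 0.109 in heterozygous and 6.24 ± 0.084 in wild-type arrays (SD, n = 5 each). Its null arrays read 6.54, 6.55, 5.91, 5.98 and 6.17, so that 2 lay above the highest wild-type array (6.37) and 2 below the lowest (6.14). The difference of means was -0.01 with an interval of -0.241 to 0.217.

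The core loop that these genes feed into was measured for 8 of its 9 listed genes, and 7 of them exceeded the filter in at least 5 arrays. Arntl, which encodes BMAL1, rose by 0.53 on the log2 scale in null against wild-type arrays (limma adjusted p = 0.0103) and by 0.40 against heterozygous arrays (limma adjusted p = 0.0395). Cry1, a core repressor, rose by 0.40 (limma adjusted p = 0.0416) and 0.47 (limma adjusted p = 0.0219) in the same comparisons. Clock (-0.02), Per1 (0.07), Per2 (-0.06), Per3 (0.14) and Cry2 (0.22) did not pass in null minus wild type. The median of the 7 was 0.14, against 0.01 over all genes tested.

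Among 14 listed kinases, ubiquitin ligase parts and other clock regulators, 10 were tested and 2 rose in null against wild-type arrays. These were Csnk1e, a kinase of PER proteins, by 0.40 (limma adjusted p = 0.00304), and Ddb1, a subunit of the CUL4 ubiquitin ligases, by 0.28 (limma adjusted p = 0.0318), and the median of the 10 was 0.08, against 0.01 over all genes tested, of which 4.17% were called higher and 3.54% lower. Of 20 listed output transcripts 13 were tested, 2 rose and 1 fell, with a median of 0.10. Cirbp and Rbm3, cold-inducible RNA-binding proteins, rose by 0.80 (limma adjusted p = 4.03e-04) and 0.43 (limma adjusted p = 0.0290), and Alas1, the first enzyme of haem synthesis, fell by 0.31 (limma adjusted p = 0.0219). Against heterozygous arrays, where 7.82% of all genes were called, these genes other than Alas1 rose again, Csnk1e by 0.26 (limma adjusted p = 0.0313), Ddb1 by 0.27 (0.0372), Cirbp by 0.56 (0.00448) and Rbm3 by 0.49 (0.0170). Of the 8 listed partners of the orphan receptors, 4 were tested and 0 were called in any comparison, with a median of 0.05 in null minus wild type.

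Most of the 10 genes varied more between animals of the same genotype than the median gene tested. The residual SD within genotypes was 0.368 for Ciart, 0.322 for Nr1d1 and 0.230 for Dbp, at the 98.8th, 98.2nd and 94.3rd percentile of all genes tested. It was above the median of 0.122 in 8 of the 10 genes and above the 80th percentile in 7, with Nfil3, Rora and Hlf only at 80.2, 80.9 and 81.2. Nr1d2 stood at the other end, with an SD of 0.0726 at percentile 7.28. For some genes the spread lay mostly in 1 genotype. In null, heterozygous and wild-type arrays the SD of Rora was 0.260, 0.079 and 0.102, and that of Bhlhe40 0.303, 0.109 and 0.084. In the same order it was 0.236, 0.112 and 0.120 for Nfil3 and 0.136, 0.107 and 0.235 for Hlf. The lowest of all 15 arrays was a null array in 8 of the 10 genes. The highest was a null array in 3, a heterozygous array in 3 and a wild-type array in 4. The 8 include Rora and Bhlhe40, whose null minus wild-type differences were 0.08 and -0.01. How often the lowest value fell in a null array over all genes tested was not computed. Null array 3 alone held the lowest value of Dbp, Nr1d2, Bhlhe40 and Bhlhe41 and the highest of Nfil3, whereas heterozygous array 3 held the highest value of Dbp, Tef and Bhlhe41.

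**Figure D4:**
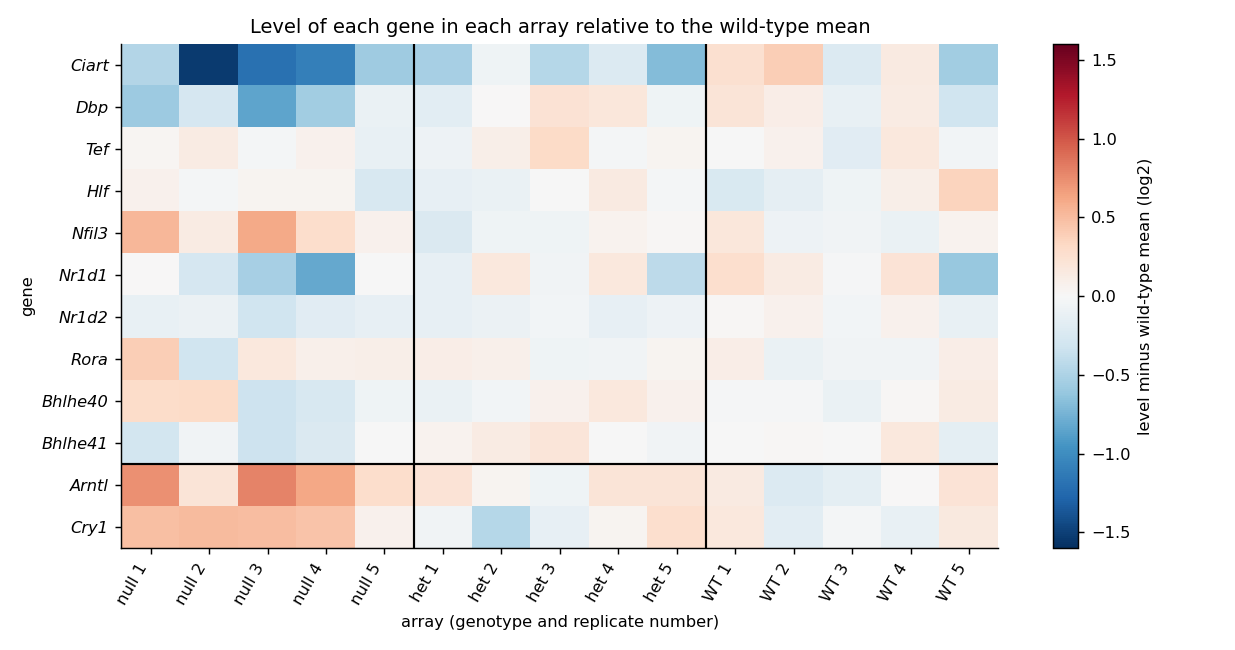
Level of each gene (rows) in each array (columns, by genotype and replicate number) minus its wild-type mean, as a log2 difference in colour, with Arntl and Cry1 beneath the line. Null array 3 is low for Dbp, Nr1d2, Bhlhe40 and Bhlhe41 and high for Nfil3, and the null arrays are not alike, with Bhlhe40 high in null arrays 1 and 2 and low in null arrays 3 and 4.

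Co-variation within genotypes was read from the deviations of each array from its genotype mean, over 15 arrays and 45 pairs of genes. After Benjamini-Hochberg adjustment over the 45 pairs, 0 pairs passed by Pearson's r or by Spearman's rho in the permutation test within genotypes. Among the strongest pairs, Dbp ran with Bhlhe41 at r = 0.788 and rho = 0.713 (permutation p = 0.00332 and 0.0112, adjusted 0.0693 and 0.117), and r was 0.687 without the 2 arrays farthest from the median of Dbp. Dbp ran with Nr1d2 at r = 0.777 and rho = 0.682 (permutation p = 0.00319 and 0.0154, adjusted 0.0693 and 0.117), and at 0.718 without those arrays. Ciart ran with Nr1d1 at r = 0.764 and rho = 0.825 (permutation p = 0.00462 and 0.00185, adjusted 0.0693 and 0.0833), and at 0.876 without the 2 arrays farthest from the median of Ciart. Without the 2 null arrays with Xist signal, r was 0.733 for Dbp with Bhlhe41 (adjusted permutation p = 0.14) and 0.857 for Dbp with Nr1d2 (0.0758). For Ciart with Nr1d1 it was then 0.653 (0.173). The spread of Ciart and its correlations with other genes were read from its first probe set, and its second was not used for them.

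Nfil3 ran against Bhlhe41 but not against all the genes, as its r was 0.555 with Rora, 0.344 with Hlf and 0.069 with Ciart. Its r with Bhlhe41 was -0.740 and rho -0.765 (permutation p = 0.0109 and 0.00563, adjusted 0.0981 and 0.0844), and -0.614 without the 2 arrays farthest from the median of Nfil3. The r between Dbp and Nfil3 was -0.464 with a rho of -0.367 (permutation p = 0.175 and 0.267, adjusted 0.337 and 0.445), and it was -0.0616 without the 2 arrays farthest from the median of Dbp, so that relation rested on those arrays. Within the 5 null arrays alone it was -0.935, against 0.538 in the heterozygous and 0.0324 in the wild-type arrays, as a description of 5 arrays each. The median size of r over the 45 pairs was 0.411, against 0.251 over all pairs of tested genes. Those other pairs were not matched for spread, which was above the median in 8 of the 10 genes. The difference between the 2 medians was not tested. As a description over the same deviations, Arntl correlated with Nfil3 at 0.758 and with Rora at 0.736, and with Bhlhe41 at -0.80, Dbp at -0.686 and Nr1d2 at -0.630. Its r was 0.477 with Hlf, -0.365 with Nr1d1, -0.245 with Tef, -0.192 with Bhlhe40 and -0.07 with Ciart. Correlations with Arntl and the other core loop genes were not tested.

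**Figure D5:**
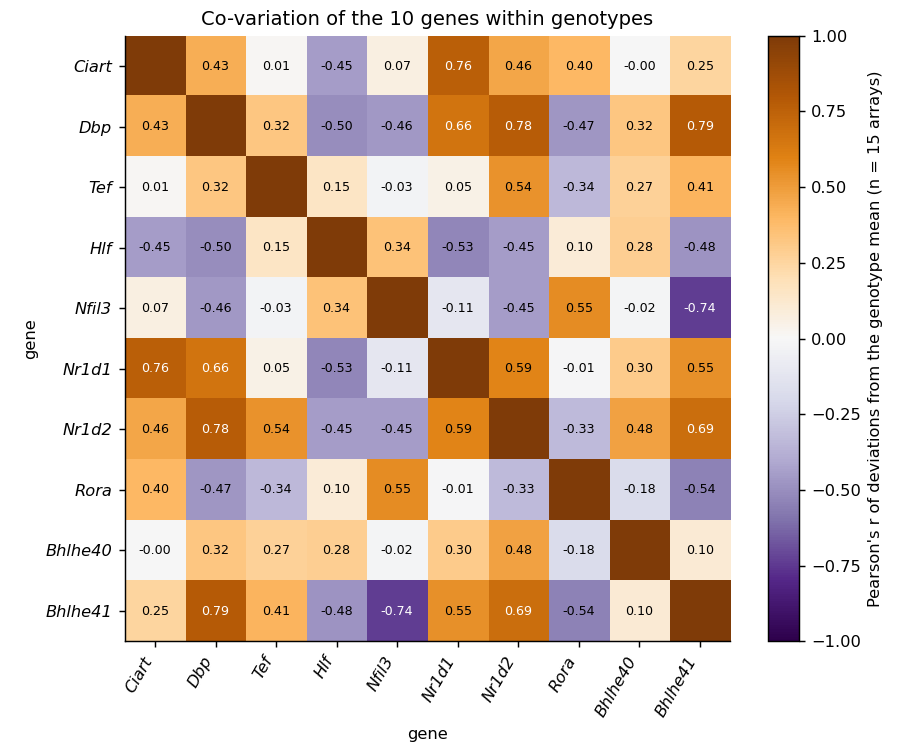
Pearson's r of deviations from the genotype mean over 15 arrays for each pair of the 10 genes (both axes), from -1 to 1 in colour and as printed values. The largest positive values are those of Dbp with Bhlhe41 (0.788), Dbp with Nr1d2 (0.777) and Ciart with Nr1d1 (0.764), Nfil3 with Bhlhe41 stands at -0.740, and 0 of the 45 pairs passed after adjustment.

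Of 9818 other named genes, those most like Dbp over the 15 deviations were Clec18a (r = 0.844), Galm (0.836), Prps1 (0.821), H1f5 (0.813) and Ulk4 (0.791), and the most opposed was Notch3 (-0.867), followed by Klc1 and Ssx2ip (-0.840 each). For Ciart they were Pik3ip1 (0.861), Tprkb (0.847), Tgif1 (0.826), Arhgef3 (0.822) and Qrich1 (0.819), with Nuak2 (-0.875), Mmp14 (-0.832) and Klhl20 (-0.830) opposed. For Nfil3 they were Ppp4r1 (0.893), Plcg1 (0.887), Vps13d (0.879), Scube3 (0.879) and Gpatch2l (0.871), with Bcr (-0.877), Cdx1 (-0.847) and Myo18b (-0.843) opposed. These are the extremes of many correlations over few arrays, and all of them exceed in size the strongest r between any 2 of the 10 genes.

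Without null arrays 1 and 5, which carried Xist signal, Ciart fell by 1.27 (limma adjusted p = 0.0026) and Dbp fell by 0.55 (limma adjusted p = 0.0336) against wild type, while Nfil3 differed by 0.34 (limma adjusted p = 0.0710). Against heterozygous arrays and without the same 2 arrays, Ciart fell by 0.88 (limma adjusted p = 0.0210), Dbp fell by 0.59 (0.0299) and Nfil3 rose by 0.39 (0.0442). Each sample also carries a number of unstated meaning in its label. Null and wild-type arrays shared 0 such numbers, so number and genotype cannot be told apart there except through a linear trend. With the number as a linear covariate, limma called 0 of the 10 genes, with null minus wild-type differences of -0.60 for Ciart (adjusted p = 0.258), -0.43 for Dbp (0.251) and 0.38 for Nfil3 (0.177). The only null and heterozygous arrays that shared a number were null array 2 and heterozygous array 5. Their differences had the sign of the group differences for Ciart (-0.84), Dbp (-0.19), Nfil3 (0.11) and Nr1d2 (-0.01). They had the opposite sign for Tef (0.08), Nr1d1 (0.15), Bhlhe40 (0.24) and Rora (-0.36), and were 0.0 for Hlf and Bhlhe41. The residual SD within genotypes was 0.230 for Dbp and 0.166 for Nfil3, so 1 pair of arrays cannot settle a direction. Leaving out each array in turn, Ciart by its first probe set was called against wild type in 15 of 15 fits, Dbp in 9 and Nfil3 in 4. The second probe set of Ciart was not put through these fits. Dbp lost its call without null array 1, 3 or 4 or without wild-type array 1, 2 or 4, with adjusted p up to 0.0933. Nfil3 kept its call against wild type only without null array 2 or 5, heterozygous array 1 or wild-type array 1, with adjusted p up to 0.135 otherwise. Against heterozygous arrays, Dbp was called in 11 of 15 fits and lost its call without null array 1 or 3 or heterozygous array 3 or 4 (adjusted p up to 0.0664). Nfil3 was also called in 11 of 15, and lost its call without null array 1 or 3 or heterozygous array 1 or 3 (adjusted p up to 0.0726).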

How the data were processed

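RNA of the choroid plexus of 15 mice was measured on 15 Affymetrix whole-transcript arrays, 5 per Add1 genotype as labelled. The deposited values are log2 levels per probe set, made with Affymetrix Expression Console 1.1 and RMA (background correction, quantile normalization and probe summary), per the submitters' processing notes. Such normalization removes differences in total signal and compresses changes near background. No source states the log base, which was inferred from a range of 1.57 to 13.89 and array medians of 4.78 to 4.88. The upstream genome build and probe annotation are likewise not given in the sources used here. Precision is set by the small number of arrays.

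The members and lists were chosen with earlier results of these data known. Of 35556 probe sets, the platform annotation listed 23410, of which 21789 had 1 symbol and 1621 several; the rest stayed unnamed. A gene identifier was found for 21698 of the single-symbol probe sets in RefSeq's GRCm38.p6 table, used for names and loci. Each of 19938 genes kept its probe set of highest mean, and 10109 genes above 5.31 in at least 5 arrays were tested. One linear model per gene over all 15 arrays (limma 3.58.1 in R 4.3.3, lmFit and eBayes, 12 residual degrees of freedom, no covariate) gave the contrasts, called at a Benjamini-Hochberg adjusted p under 0.05 over all genes tested. Single genes were also compared over the 252 regroupings of 5 against 5 arrays (exact, two-sided; Python 3.11.15). Correlations between members used 100000 permutations within genotype, two-sided. Named were the 10 members, the core loop genes, up to 4 called genes of each other list by p, and the 5 most like and 3 most opposed genes for Dbp, Ciart and Nfil3. On simulated data for null against wild type with 10109 genes, 54% of log2 changes of 0.3, 86% of those of 0.5 and 100% of those of 1 were recovered, and 5.16% of calls were false. The simulation changed far fewer genes than were called here and gave each gene the same spread in all genotypes. These rates need not hold for the measured arrays.

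Alternatives were no filter, a stricter filter (6.02 in at least 10 arrays), the mean of all probe sets, median centring, repeated quantile normalization, only the 2 genotypes compared, a variance trend, array weights, a replicate block, the label number as covariate or random block, and leaving out arrays. Titles give the genotypes the same replicate numbers, but over the 15 pairs of same-numbered arrays the deviations correlated at -0.254 to 0.238, above 0.1 in only 4, so the numbers were not taken as pairs.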

Additional observations from a re-analysis of the deposited data

How the results depend on the processing

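All differences called for the 10 genes kept their direction under every alternative run, while their calls did not. From 3 genes called between null and wild-type arrays, the count was 1 without the filter, 1 with only the 2 genotypes compared, 1 with the replicate block, 0 with a linear covariate of the label number, 5 with array weights and 1 to 4 leaving out an array. Under the replicate block Ciart kept its call (limma adjusted p = 0.0151), and Dbp (0.0638) and Nfil3 (0.0808) did not. With the label number as a random block 2 genes were called, and Nfil3 was not (0.0537). From 2 genes called between null and heterozygous arrays, the count was 1 with only the 2 genotypes, 0 with the label covariate, 4 with array weights and 0 to 3 leaving out an array. The cause of these moves was not tested. The genes gained with array weights were Nr1d2 and Bhlhe41 against wild type (adjusted p = 0.0177 and 0.0454), and Ciart and Bhlhe41 against heterozygous arrays (0.0388 and 0.0158). With the second probe set of Ciart, an alternative chosen after seeing the data, its difference was -0.40 (adjusted p = 0.176), and with the mean of both it was -0.68 (0.0176).

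Over all genes, 780 calls between null and wild-type arrays became 458 with only the 2 genotypes, 1315 with array weights, 259 with the label covariate, 401 without the 2 null arrays with Xist signal and 392 to 1420 leaving out an array. The 791 calls between null and heterozygous arrays became 500 without the filter, 342, 1296, 199 and 332 under those same settings, and 356 to 1812 leaving out an array. The heterozygous and wild-type count of 0 became 1 with array weights and 1 without the arrays with Xist signal, and 0 to 1 leaving out an array. From deviations, 0 of 45 pairs of genes passed; from raw levels, which carry the genotype differences, 11 did. Of the genes outside the 10, Csnk1e and Cirbp kept their calls against wild type in 27 of 27 alternatives, Arntl in 25 of 26, Alas1 in 20 of 27, Ddb1 and Rbm3 in 16 of 27 each and Cry1 in 13 of 26. Against heterozygous arrays it was 26 of 27 for Cirbp, 24 of 27 for Rbm3, 21 of 26 for Cry1, 17 of 27 for Ddb1, 16 of 27 for Csnk1e and 13 of 26 for Arntl.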
